A study of Homo sapiens with 6 samples.

Results

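The genes described here encode the machinery of cytoplasmic and nuclear messenger RNA decay: the enzymes that shorten the poly(A) tail, the decapping complex and the 5′-to-3′ exonucleases, the RNA exosome, the factors of nonsense-mediated decay (NMD), and proteins that bind AU-rich elements or poly(A). They were taken by name, as 49 listed genes, through probe sets that the platform annotation assigns to a single gene. Of the 49, 45 were measured, among 13572 genes tested in all. SMG1 and PABPC4 were covered only by probe sets annotated to several genes, and UPF3A and UPF3B were not analysed here. All 45 measured genes passed the filter on low signal, and 107 of their 125 probe sets did so.

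The samples were 3 arrays of Kasumi-1 cells treated with 20 nM homoharringtonine (HHT) for 24 h and 3 arrays of Kasumi-1 cells given vehicle for 24 h. Kasumi-1 is 1 established line of human myeloid leukaemia with a RUNX1-RUNX1T1 fusion gene. HHT, an alkaloid from plum yew, binds the ribosome and blocks elongation of translation. Total RNA was measured on one-colour Affymetrix 3′ arrays, and whether the arrays of a group stand for separate cultures is not stated in the labels. The p-values therefore cover the spread between these arrays alone, which may be technical. The series title ties HHT to transcription of MYC and to NF-kB repressing factor.

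Most messenger RNAs are thought to be degraded in steps. PAN2-PAN3 and the CCR4-NOT complex shorten the poly(A) tail, after which the messenger is either decapped by DCP2 and digested from its 5′ end by XRN1, or digested from its 3′ end by the exosome. NMD removes messengers on which translation ends early, and is carried out by UPF and SMG proteins. NMD acts on messengers while they are translated.

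Values are log2 signals as deposited, and a change is the HHT mean minus the vehicle mean on that scale. A gene was represented by its brightest single-gene probe set and was called at an adjusted p under 0.05 (limma, Benjamini-Hochberg over 32768 probe sets). Of the members, 31 had over 1 probe set tested, and in 13 of these all probe sets gave the same call. CNOT10, PAN2, PAN3, DCP1B, EDC4, LSM1, EXOSC5, EXOSC8, EXOSC9, EXOSC10, UPF2, SMG6, ZFP36 and PABPC1 had only 1, so their changes rest on it. Array medians were 5.77, 5.62 and 5.53 in HHT, against 5.96, 5.86 and 5.82 in vehicle, in a file whose arrays share 1 trimmed mean. The 18 probe sets for spiked hybridisation controls averaged 11.70 ± 0.0598 in HHT and 11.98 ± 0.0282 in vehicle (SD, n = 3 each), and all 18 were lower in HHT. The 12 probe sets for poly-A controls averaged 7.48 ± 0.122 in HHT and 7.96 ± 0.191 in vehicle, and 6 array controls of ACTB and GAPDH averaged 13.29 ± 0.0451 in HHT and 13.89 ± 0.072 in vehicle (SD, n = 3 each). All of these were lower in HHT too, by 0.48 and 0.60 in the mean, and their part in the decreases below was not tested. Scaling the arrays to equal medians moved the median of all genes to 0.24, and scaling to equal hybridisation controls moved it to 0.28, so small decreases below are stated with those scalings. Of 6 measured myeloid blast markers, 3 fell, none rose and 3 were not called (RUNX1T1, ANPEP and CSF3R), and their summed linear signal was 34603 to 36729 in HHT and 58889 to 66080 in vehicle. MPO had 12.48, 12.55 and 12.85 in HHT, against 14.47, 14.32 and 14.38 in vehicle, and was 3.38-fold lower (adjusted p = 1.70e-07). CD34 had 7.75, 8.11 and 8.22 in HHT, against 9.18, 9.25 and 9.17 in vehicle, and was 2.26-fold lower (adjusted p = 4.65e-05). KIT lay between 14.17 and 14.24 in HHT and between 14.75 and 14.99 in vehicle, and RUNX1T1 between 13.16 and 13.23 in HHT and between 13.20 and 13.27 in vehicle. Of 6 measured markers of other cell types, 2 fell (EPCAM, -0.76, and COL1A1, -0.86), none rose and 4 were not called. COL1A1 lost its call with equal medians (-0.62). Lower calls made up 50% of the blast markers and 33.3% of these, against 24.2% of all genes. No fall particular to the blast markers is read from this. EPCAM was bright, at 12.85 to 13.01 in HHT and 13.66 to 13.71 in vehicle. The other 5 lay between 3.77 and 7.02 in HHT and between 5.13 and 7.73 in vehicle. The part of the markers in the results was not tested.

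Of the 45 measured decay genes, 22 rose, 11 fell and 12 were not called. The called share, 73.3%, was above the 53.8% of all genes (29.6% higher and 24.2% lower in HHT), but decay genes were also brighter than most. Among the 3174 genes whose mean level lay between 10.25 and 12.03, the middle range of the members, 75.3% were called (44.5% higher and 30.8% lower). The members' 48.9% higher and 24.4% lower are close to those shares, so the counts over the whole list are no result about decay genes. By role, higher and lower shares were 50% and 14.3% in deadenylation (CCR4-NOT 40% and 10%), and 40% and 0% in NMD. Their higher shares are near the 44.5%, and their lower shares are under the 30.8%. The median level of the NMD genes, 9.26, lay below that range, so it is no matched background for NMD. No result about these roles is read from the counts. Shares were 70% and 0% in decapping and 5′-to-3′ decay, 36.4% and 54.5% in the exosome and 40% and 60% in the binding proteins. Each role held 5 to 14 genes, and no role was tested against the background. The median change was 0.70 for decapping and 5′-to-3′ decay, 0.30 for deadenylation and -0.29 for the exosome, against 0.26 over all members and a median of all genes that rounded to 0. With equal medians these were 0.94, 0.54 and -0.05, against 0.50 over all members and 0.24 over all genes. With equal hybridisation controls they were 0.98, 0.59 and a value that rounded to 0, against 0.54 and 0.28. After quantile normalization the exosome median was -0.38, against 0.30 over all members and 0.05 over all genes. The size of the negative median of the exosome thus depended on the scaling, but it lay below the median of all genes under each. As bulk RNA was measured, a change in RNA per cell and a change in the share of cells that carry it cannot be told apart.

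**Figure D1:**
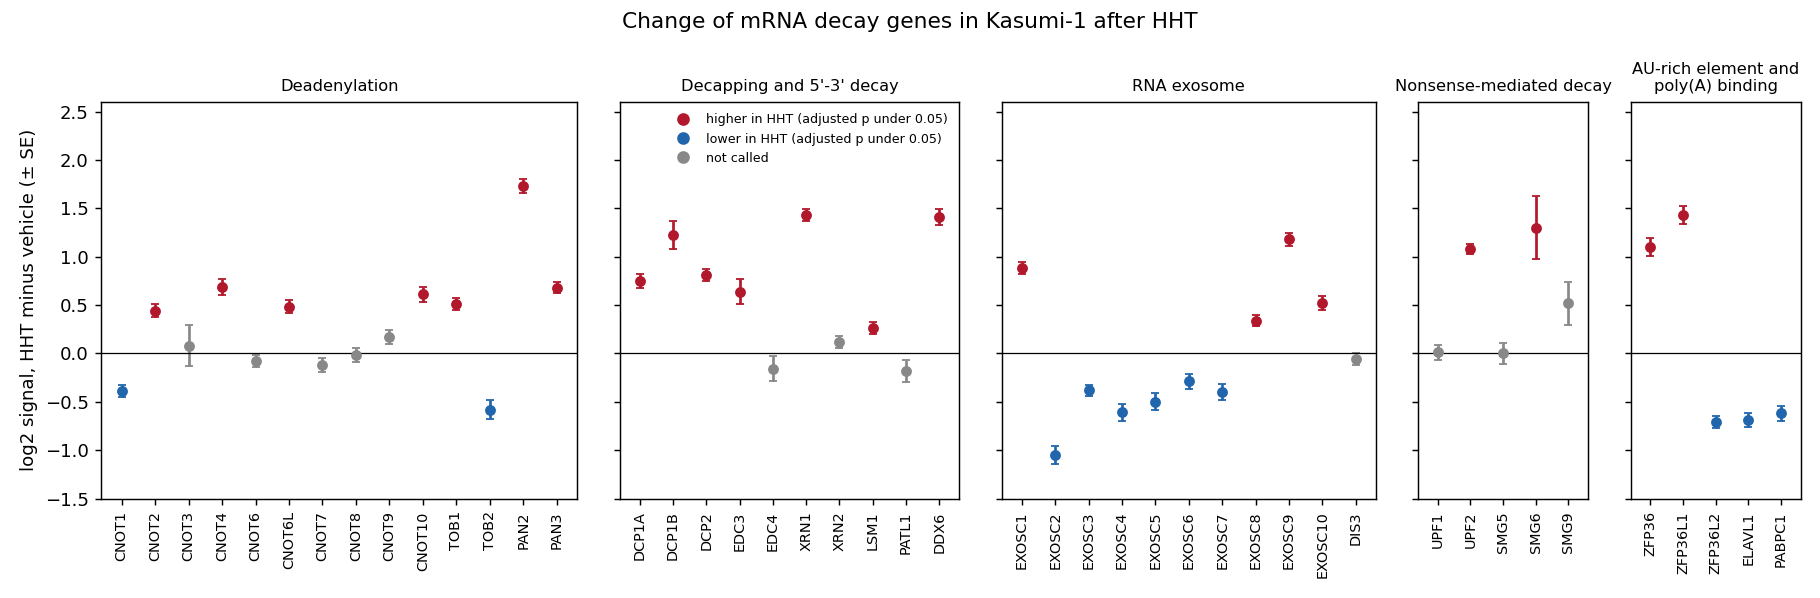
Log2 change (HHT minus vehicle, vertical axis) of the 45 measured mRNA decay genes, grouped by role. Points are fitted changes with bars of 1 SE from 3 arrays per group, coloured by call; 7 of 10 decapping and 5′-to-3′ genes lie above 0 and called, and 6 of 11 exosome genes lie below 0 and called.

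The balance of calls depended on how the arrays were scaled. Higher calls made up 66.7% of the members' calls as deposited (22 higher, 11 lower), 83.3% with equal medians (25 higher, 5 lower) and 82.4% with equal hybridisation controls (28 higher, 6 lower). Over all genes the same share was 55.1% as deposited, 74.7% once medians were equal and 76.4% once hybridisation controls were. With quantile normalization it was 67.6% for the members (23 higher, 11 lower) and 56.5% for all genes. All 22 increases of members kept their call under the 3 other scalings, whereas 6 of the 11 decreases lost their call with equal medians. The groups did not overlap for 35 of the 45 members, against 8443 of all 13572 genes (62.2%). That share was not computed for genes as bright as the members, so no excess is read from it.

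In deadenylation, 7 of 14 genes rose, 2 fell and 5 were not called (8 higher and 0 lower with equal medians, 9 higher and 1 lower with equal hybridisation controls). The largest increase was in PAN2, the exonuclease of the PAN2-PAN3 complex, which trims long poly(A) tails. PAN2 had signals of 11.18, 11.13 and 11.04 in HHT, against 9.42, 9.37 and 9.36 in vehicle. All HHT arrays lay well above all vehicle arrays, and the change of 1.73 (SE 0.0763, adjusted p = 7.49e-08) was a 3.32-fold increase. PAN3, the regulatory partner that recruits PAN2 to poly(A)-binding protein, had 12.32, 12.30 and 12.26 in HHT, against 11.63, 11.61 and 11.61 in vehicle. It rose by 0.68 (SE 0.0553, adjusted p = 3.32e-06), with no overlap of the groups. PAN2 changed by 1.05 more than PAN3 within the same arrays (SE 0.0269).

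The CCR4-NOT complex was split by subunit: of its 10 listed genes 4 rose, 1 fell and 5 were not called. CNOT4, a RING-domain ubiquitin ligase associated with the complex, had 10.78, 10.64 and 10.60 in HHT, against 10.02, 10.06 and 9.89 in vehicle. It rose by 0.69 (SE 0.0836, adjusted p = 5.89e-05), and 3 of its 5 probe sets were called, all higher. CNOT10 rose by 0.61, CNOT6L, a CCR4-type deadenylase, by 0.48 and CNOT2, which helps to dock targeting proteins, by 0.44. The call of CNOT2 was lost when its probe sets were averaged (0.36, adjusted p = 0.0538). CNOT1, the scaffold on which the complex is built, had 11.89, 11.82 and 11.82 in HHT, against 12.23, 12.31 and 12.16 in vehicle. It fell by 0.39 (SE 0.0613, adjusted p = 3.57e-04), but lost its call when medians were set equal (-0.15, adjusted p = 0.246) and when hybridisation controls were (-0.11, adjusted p = 0.308), and its other probe sets were not called.

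The remaining catalytic subunits did not pass the test. CNOT7 and CNOT8, paralogous CAF1-type deadenylases, changed by -0.12 (SE 0.0714) and -0.02 (SE 0.0716). CNOT6, the paralogue of CNOT6L, changed by -0.08 (SE 0.0646). Within the same arrays CNOT6 changed by 0.56 less than CNOT6L (difference -0.56, SE 0.0772), while CNOT7 and CNOT8 differed by -0.10 (SE 0.0845). CNOT3 and CNOT9 were also not called, at 0.08 and 0.17. CNOT9 was called higher with equal medians (0.40, adjusted p = 0.00806), with equal hybridisation controls (0.45, adjusted p = 0.00126) and without vehicle replicate 1 (0.23, adjusted p = 0.0326). In CNOT3, CNOT6, CNOT7 and CNOT8, 1 dimmer probe set each was called lower (-0.78, -0.43, -0.78 and -0.26), and in CNOT9 2 were (-0.71 and -0.45), so the changes of these 5 genes depended on the probe set read. Averaged over probe sets, CNOT6 (-0.25, adjusted p = 0.00462) and CNOT7 (-0.34, adjusted p = 0.00132) were called lower.

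TOB1 and TOB2, antiproliferative adaptors that bring CCR4-NOT to poly(A)-binding protein, moved in opposite directions. TOB1 had 13.13, 13.22 and 13.16 in HHT, against 12.59, 12.77 and 12.61 in vehicle, an increase of 0.51 (SE 0.0631, adjusted p = 6.51e-05) that its second probe set shared (0.85). TOB2 had 9.91, 10.25 and 10.03 in HHT, against 10.57, 10.61 and 10.75 in vehicle. It fell by 0.58 (SE 0.0989, adjusted p = 6.56e-04), and its call was lost with equal medians (-0.34, adjusted p = 0.0718) and with the mean of its probe sets (-0.15, adjusted p = 0.515). Its other 2 probe sets were not called, at -0.53 and 0.65, so the opposition to TOB1 rests on 1 probe set of TOB2. The groups did not overlap for either gene, and TOB1 changed by 1.09 more than TOB2 within the same arrays (SE 0.113).

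In decapping and 5′-to-3′ decay, 7 of 10 genes rose, none fell and 3 were not called. Of 14 other decapping genes, given below, 5 rose and 5 fell, with a median change of 0.06 against 0.70 here. The 5 that fell, LSM2, LSM4, LSM6, LSM7 and EIF4ENIF1, all lost their call with equal medians. Among the 10, the 3 largest increases were in XRN1, DDX6 and DCP1B. XRN1, the cytoplasmic 5′-to-3′ exonuclease that digests decapped messengers, had 12.50, 12.44 and 12.54 in HHT, against 11.08, 11.12 and 10.99 in vehicle. It rose by 1.43 (SE 0.0628, adjusted p = 7.29e-08), a 2.69-fold increase, and 3 of its 4 probe sets were called higher. XRN2, the nuclear 5′-to-3′ exonuclease that acts in transcription termination, had 11.01, 11.02 and 11.05 in HHT, against 10.91, 10.88 and 10.94 in vehicle. Its change of 0.12 (SE 0.0636, adjusted p = 0.164) was not called as deposited and was called with equal medians (0.35, adjusted p = 0.0202), with equal hybridisation controls (0.40) and with the mean of its probe sets (0.20). XRN1 changed by 1.31 more than XRN2 within the same arrays (SE 0.0608).

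DDX6, a DEAD-box helicase of P-bodies that links translational repression to decapping, had 12.56, 12.40 and 12.37 in HHT, against 10.94, 10.99 and 11.18 in vehicle. The groups were far apart, and the change of 1.41 (SE 0.0806, adjusted p = 3.39e-07) was a 2.66-fold increase. DCP1B, a paralogue of the decapping activator DCP1A, had 10.11, 9.80 and 9.75 in HHT, against 8.39, 8.87 and 8.75 in vehicle, an increase of 1.22 (SE 0.145, adjusted p = 4.92e-05). DCP1A itself rose by 0.75 and DCP2, the catalytic subunit that removes the cap, by 0.81. In DCP2 a second probe set also rose (1.14), but another fell by 0.74 (adjusted p = 2.90e-04), so the direction held for 2 of its 3 probe sets. EDC3, a scaffold that enhances decapping, rose by 0.64 and LSM1, the subunit that defines the cytoplasmic LSM ring, by 0.26. Without the variance trend LSM1 was not called (adjusted p = 0.0578), which left 6 of the 10 genes higher. EDC4 and PATL1, a decapping scaffold and the protein that bridges DDX6 and the LSM ring, changed by -0.16 (SE 0.129) and -0.18 (SE 0.113), were not called, and turned positive under equal medians and under equal hybridisation controls, still not called. EDC3 changed by 0.80 more than EDC4 within the same arrays (SE 0.178).

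**Figure D2:**
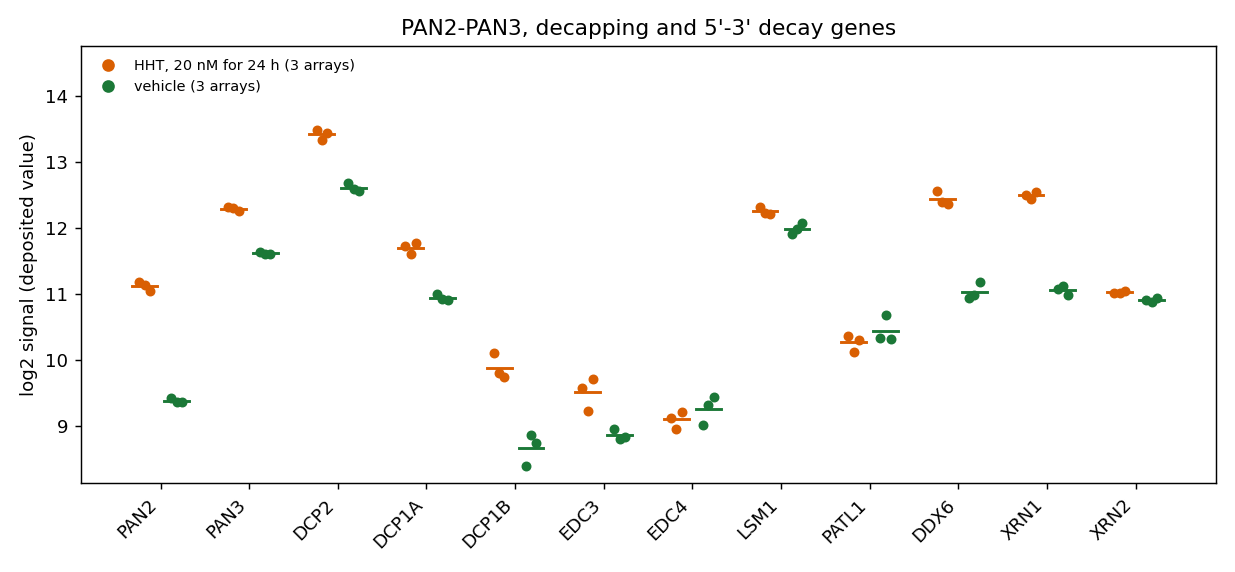
Deposited log2 signal (vertical axis) of PAN2, PAN3 and the 10 decapping and 5′-to-3′ decay genes on each of 3 HHT (left of each pair) and 3 vehicle arrays. Points are arrays and short lines are group means; PAN2, DCP1B, DDX6 and XRN1 show the widest gaps, and EDC4 and PATL1 overlap.

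The exosome is a barrel of 9 subunits, with a ring of 6 (EXOSC4 to EXOSC9) capped by 3 (EXOSC1 to EXOSC3), to which the nucleases EXOSC10 and DIS3 are attached. Its subunits did not move together: 4 of 11 rose, 6 fell and 1 was not called. With equal medians 4 rose and 2 fell, and with equal hybridisation controls 5 rose and 2 fell. The increases held under every scaling tried, while EXOSC3, EXOSC5, EXOSC6 and EXOSC7 lost their lower calls under equal medians and under equal hybridisation controls.

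In the cap, EXOSC1 rose while EXOSC2 and EXOSC3 fell. EXOSC1 had 11.40, 11.39 and 11.42 in HHT, against 10.49, 10.56 and 10.51 in vehicle, a change of 0.88 (SE 0.0639, adjusted p = 1.56e-06). EXOSC2 had 9.37, 9.60 and 9.27 in HHT, against 10.46, 10.49 and 10.45 in vehicle. It fell by 1.05 (SE 0.0976, adjusted p = 8.09e-06) and was 2.08-fold lower, and it stayed called with equal medians (-0.82). Its dimmer probe set fell by 0.39. EXOSC3, for which loss-of-function variants are a known cause of pontocerebellar hypoplasia, fell by 0.38 (SE 0.0554), and 4 of its 6 probe sets were called, all lower.

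The ring is assembled from 3 pairs, EXOSC4 with EXOSC9, EXOSC5 with EXOSC8, and EXOSC6 with EXOSC7. EXOSC9 had 12.73, 12.70 and 12.73 in HHT, against 11.58, 11.41 and 11.63 in vehicle. It rose by 1.18 (SE 0.0674, adjusted p = 3.39e-07), a 2.27-fold increase. Its partner EXOSC4 had 10.13, 10.04 and 10.20 in HHT, against 10.58, 10.73 and 10.88 in vehicle. It fell by 0.61 (SE 0.0913, adjusted p = 2.70e-04), and all 3 of its probe sets were called lower. EXOSC9 thus changed by 1.79 more than EXOSC4 within the same arrays (SE 0.103), a difference that does not depend on a scaling that shifts whole arrays.

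EXOSC8 and EXOSC5 showed the same opposition at a smaller size. EXOSC9, EXOSC8 and EXOSC5 each had 1 probe set tested, so both oppositions lack a second probe set for these genes. EXOSC5 had 9.67, 9.89 and 9.86 in HHT, against 10.36, 10.22 and 10.33 in vehicle, a fall of 0.50 (SE 0.0894, adjusted p = 9.22e-04). EXOSC8 rose by 0.34 (SE 0.0573), and the pair differed by 0.84 within arrays (SE 0.102). In the remaining pair both genes were lower, EXOSC6 at -0.29 (SE 0.0773) and EXOSC7 at -0.40 (SE 0.0821). EXOSC6 also lost its call without the variance trend (adjusted p = 0.0526) and with the mean of its probe sets (-0.11, adjusted p = 0.415). EXOSC7 cannot be given 1 direction, since its dimmer probe set rose by 1.13 (adjusted p = 3.96e-06), and averaging the pair of probe sets gave 0.36 (adjusted p = 3.25e-04). Of the nucleases, EXOSC10, the mainly nuclear 3′-to-5′ enzyme, had 11.02, 11.07 and 11.23 in HHT, against 10.64, 10.55 and 10.58 in vehicle, a rise of 0.52 (SE 0.0763, adjusted p = 2.34e-04). DIS3, the principal processive nuclease of the complex, had 11.18, 11.21 and 11.22 in HHT, against 11.19, 11.27 and 11.32 in vehicle. Its groups overlapped, and the change of -0.06 (SE 0.0647) was not called and turned positive with equal medians (0.18, not called) and equal hybridisation controls (0.22, adjusted p = 0.0277).

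**Figure D3:**
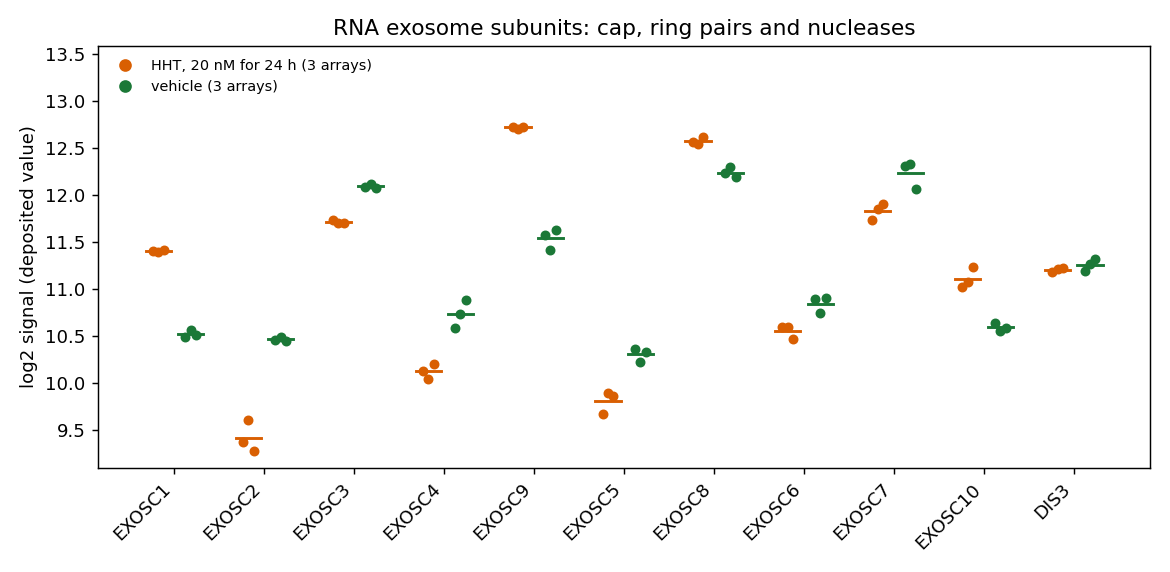
Deposited log2 signal (vertical axis) of the 11 exosome genes on 3 HHT arrays (left of each pair) and 3 vehicle arrays, ordered as cap, ring pairs and nucleases. Points are arrays and short lines are group means; EXOSC1, EXOSC9, EXOSC8 and EXOSC10 are higher in HHT, DIS3 overlaps, and the other 6 are lower.

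Of 12 within-array differences between partner genes, 10 reached the smallest two-sided exact permutation p that 3 against 3 arrays allow (p = 0.1, adjusted p = 0.12), so none could pass 0.05. CNOT7 with CNOT8 (exact permutation p = 0.4) and EXOSC6 with EXOSC7 (exact permutation p = 0.5) did not reach it. The 3 exosome ring pairs were chosen after their values were seen.

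Among the NMD factors, 2 of 5 measured genes rose, none fell and 3 were not called. UPF2, the adaptor between UPF1 and the exon junction complex, had 13.00, 13.02 and 12.97 in HHT, against 11.88, 11.96 and 11.90 in vehicle. It rose by 1.08 (SE 0.0541, adjusted p = 1.55e-07), a 2.12-fold increase, with the groups far apart. SMG6, the endonuclease that cuts NMD targets, had 6.54, 6.54 and 6.48 in HHT, against 4.91, 5.31 and 5.45 in vehicle. It rose by 1.30 (SE 0.324, adjusted p = 0.00704), although its vehicle signals lay close to the filter level of 4.80 and the gene was left out by the stricter filter. UPF1, the helicase at the centre of NMD, had 9.77, 9.75 and 9.80 in HHT, against 9.74, 9.76 and 9.78 in vehicle, and was not called as deposited (change 0.01, SE 0.0796), but was called with equal hybridisation controls (0.29, adjusted p = 0.0211). SMG5 changed by 0.00 (SE 0.110) and SMG9, a cofactor of the SMG1 kinase, by 0.52 (SE 0.222, adjusted p = 0.0774), with vehicle signals spread between 7.57 and 8.54. Setting the medians equal made SMG9 a higher call (0.76, adjusted p = 0.011), as did setting the hybridisation controls equal (0.81, adjusted p = 0.00772). Leaving out 1 array moved it from 0.25 (without vehicle replicate 2) to 0.74 (without vehicle replicate 1, adjusted p = 0.0181).

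Transcripts known to be sensitive to NMD were read from a separate list. Of 7 measured, 3 rose (GADD45A by 0.53, ATF3 by 0.51 and the snoRNA host ZFAS1 by 0.39, with 3 of its 4 probe sets higher and 1 lower), 1 fell and 3 were not called (GADD45B, TBL2 and ATF4). With equal medians 4 were higher and 1 lower, GADD45B being added (0.40, adjusted p = 0.0323). With equal hybridisation controls 5 were higher and 1 lower, TBL2 being added as well (0.23, adjusted p = 0.0288), and quantile normalization gave 4 higher, with ATF4 added (0.21, adjusted p = 0.0205), and 1 lower. The 1 that fell was GAS5, a snoRNA host whose decay depends on translation, at 7.08, 6.57 and 6.63 in HHT, against 8.50, 8.61 and 8.44 in vehicle (change -1.76, SE 0.181). Its other probe sets were annotated to several genes and were not used here. The higher and lower shares of the 7 transcripts, 42.9% and 14.3% as deposited, stand beside 44.5% and 30.8% of genes as bright as the members. Higher calls over all genes grew too, from 4017 as deposited to 5062 once medians were equal and 5640 once hybridisation controls were. The 7 transcripts were not tested against this background, so no result about targets of NMD is read from their counts.

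The proteins that bind AU-rich elements and poly(A) were all called, 2 of 5 higher and 3 lower, under each scaling tried. ZFP36 (tristetraprolin), ZFP36L1 and ZFP36L2 are related zinc-finger proteins that bind AU-rich elements and recruit CCR4-NOT. ZFP36L1 had 11.44, 11.51 and 11.37 in HHT, against 9.81, 10.16 and 10.07 in vehicle, and rose by 1.43 (SE 0.0953, adjusted p = 8.86e-07), a 2.69-fold increase. ZFP36 had 10.10, 10.18 and 10.22 in HHT, against 9.03, 9.20 and 8.97 in vehicle, and rose by 1.10 (SE 0.0942, adjusted p = 4.62e-06). ZFP36L2 went the other way, with 11.54, 11.58 and 11.55 in HHT, against 12.24, 12.34 and 12.20 in vehicle. It fell by 0.71 (SE 0.0599, adjusted p = 4.30e-06), and both of its probe sets were called lower. ZFP36L1 changed by 2.13 more than ZFP36L2 within the same arrays (SE 0.1), the widest difference among the 12 pairs.

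ELAVL1 (HuR), which binds AU-rich elements and stabilises the messenger, had 13.04, 13.03 and 12.82 in HHT, against 13.72, 13.58 and 13.65 in vehicle. It fell by 0.69 (SE 0.0698, adjusted p = 1.53e-05), and all 4 of its probe sets were called lower. PABPC1, the main cytoplasmic poly(A)-binding protein, had 14.13, 14.16 and 14.19 in HHT, against 14.97, 14.71 and 14.66 in vehicle. It fell by 0.62 (SE 0.0753, adjusted p = 5.65e-05). Its value was -0.22 after quantile normalization, still called. PABPC1 has close relatives and processed pseudogenes, and its probe set is of the type that may bind more than 1 of them.

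**Figure D4:**
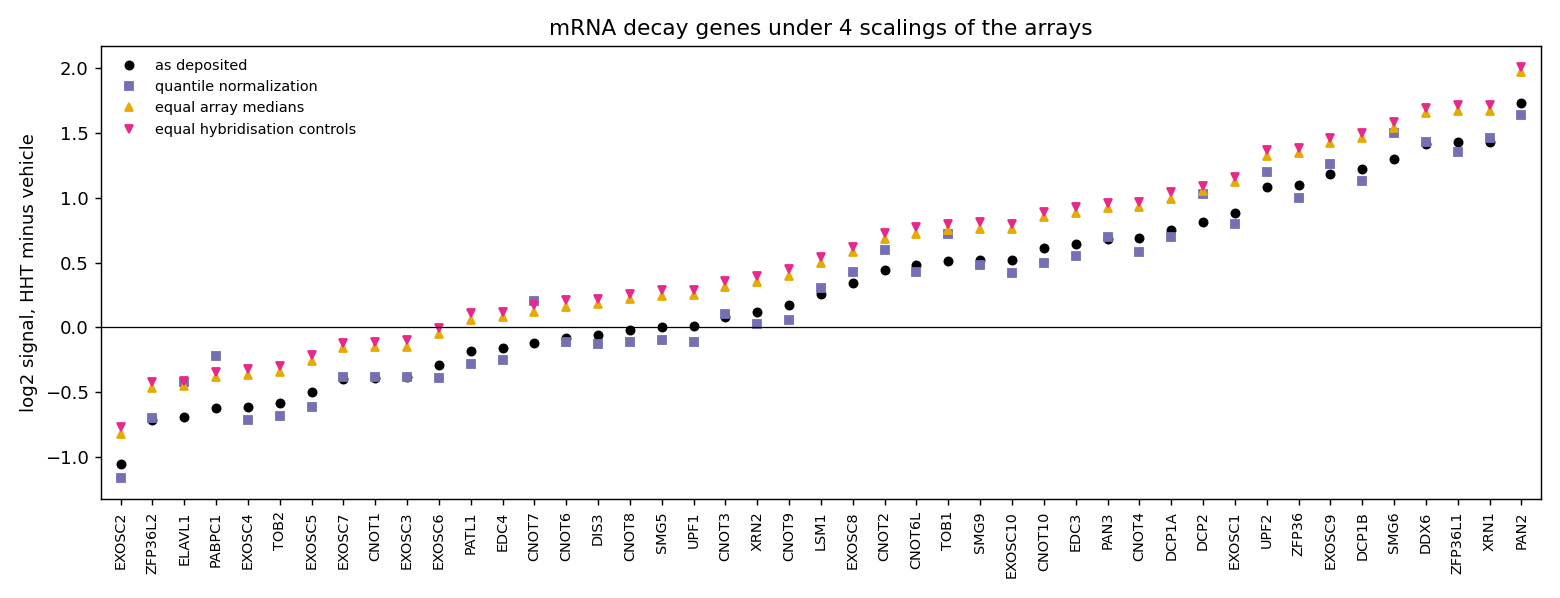
Log2 change (HHT minus vehicle, vertical axis) of the 45 members, ordered by their change as deposited, under 4 scalings of the arrays. Equal medians and equal hybridisation controls lift every gene, and the lower values of EXOSC2, ZFP36L2, ELAVL1, PABPC1 and EXOSC4 stay below 0 and called under all 4.

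Since MYC is named in the series title, the RefSeq promoter windows (GRCh38.p14, 250 bases before to 50 after each start) of 40 members were searched on both strands for the E-box CACGTG, the letters bound by MYC with MAX. It was found in 5 of the 40, against 12.3% of 10923 tested genes with a window and 7.26% of all 35093 windows, a share near that of genes in general. Of the matched genes, CNOT4, UPF2 and SMG6 rose (3 of 20 risen members with a window), EXOSC5 fell (1 of 6 fallen members) and XRN2 was not called. The stretches before the start that hold the match are shown with the E-box in capitals, so that the genes with and without a change can be compared. They lie at chr7:135510261-135510346 (CNOT4, minus strand), chr10:12043362-12043420 (UPF2, minus strand), chr17:2266186-2266271 (SMG6, minus strand), chr19:41397403-41397488 (EXOSC5, minus strand) and chr20:21303263-21303330 (XRN2, plus strand).
CNOT4: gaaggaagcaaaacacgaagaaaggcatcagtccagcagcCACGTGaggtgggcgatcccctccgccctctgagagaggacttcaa
UPF2: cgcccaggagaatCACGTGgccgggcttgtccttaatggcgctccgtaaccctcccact
SMG6: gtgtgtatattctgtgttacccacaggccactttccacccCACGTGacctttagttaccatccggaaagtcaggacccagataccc
EXOSC5: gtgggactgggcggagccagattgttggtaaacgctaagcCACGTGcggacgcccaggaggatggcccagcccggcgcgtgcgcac
XRN2: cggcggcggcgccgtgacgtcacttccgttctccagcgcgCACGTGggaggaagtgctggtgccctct
A match is a description of these letters, and binding was not measured.

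Other genes of the same pathways were read from a list of 66, of which 59 were measured. Of these, 24 rose, 21 fell and 14 were not called (27 higher and 10 lower with equal medians, 31 higher and 10 lower with equal hybridisation controls). The called share, 76.3%, is close to the 75.3% of genes as bright as the members, so the count is no result about this list. By role, 5 of 14 rose and 5 fell in decapping (median change 0.06, and 0.30 with equal medians). In deadenylation 2 of 7 rose and 3 fell (median -0.50), and for the exosome 6 of 13 rose and 4 fell (0.08). In NMD and termination 3 of 9 rose and 5 fell (-0.32), and of binding and silencing factors 8 of 16 rose and 4 fell (0.26). The members' medians by role were thus not repeated in decapping, deadenylation or the exosome. The largest increase was in PNRC1, listed here under decapping, with 12.26, 11.94 and 12.41 in HHT, against 9.97, 10.03 and 9.28 in vehicle. It rose by 2.44 (SE 0.184, adjusted p = 1.93e-06), a 5.44-fold increase. TNRC6C, a GW182 protein that links Argonaute to CCR4-NOT in silencing by microRNAs, rose by 1.77 (SE 0.0724) in 1 called probe set of 6, and BTG1, an antiproliferative relative of TOB1 that binds CNOT7 and CNOT8, by 1.74 (SE 0.0750).

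The largest decreases were in EIF4A3, GSPT1 and NOCT. EIF4A3, the helicase that anchors the exon junction complex, had 12.62, 12.58 and 12.48 in HHT, against 13.87, 13.80 and 13.64 in vehicle, and fell by 1.21 (SE 0.0691). GSPT1, the release factor eRF3a, fell by 1.13 (SE 0.0770) and NOCT by 0.89 (SE 0.201). Further genes were picked after their values were seen. GSPT2, the paralogue of GSPT1, rose by 1.11 (SE 0.104). Of the LSM proteins that share the ring with LSM1, LSM2 (-0.32), LSM4 (-0.30), LSM6 (-0.40) and LSM7 (-0.24) fell and LSM3 and LSM5 were not called, and with equal medians none of LSM2, LSM4, LSM6 and LSM7 was called. Of the Argonautes, AGO3 rose by 1.45 and AGO4 by 1.21, AGO2 fell by 0.33, a call lost with equal medians (-0.09, adjusted p = 0.670), and AGO1 was not called.

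**Figure D5:**
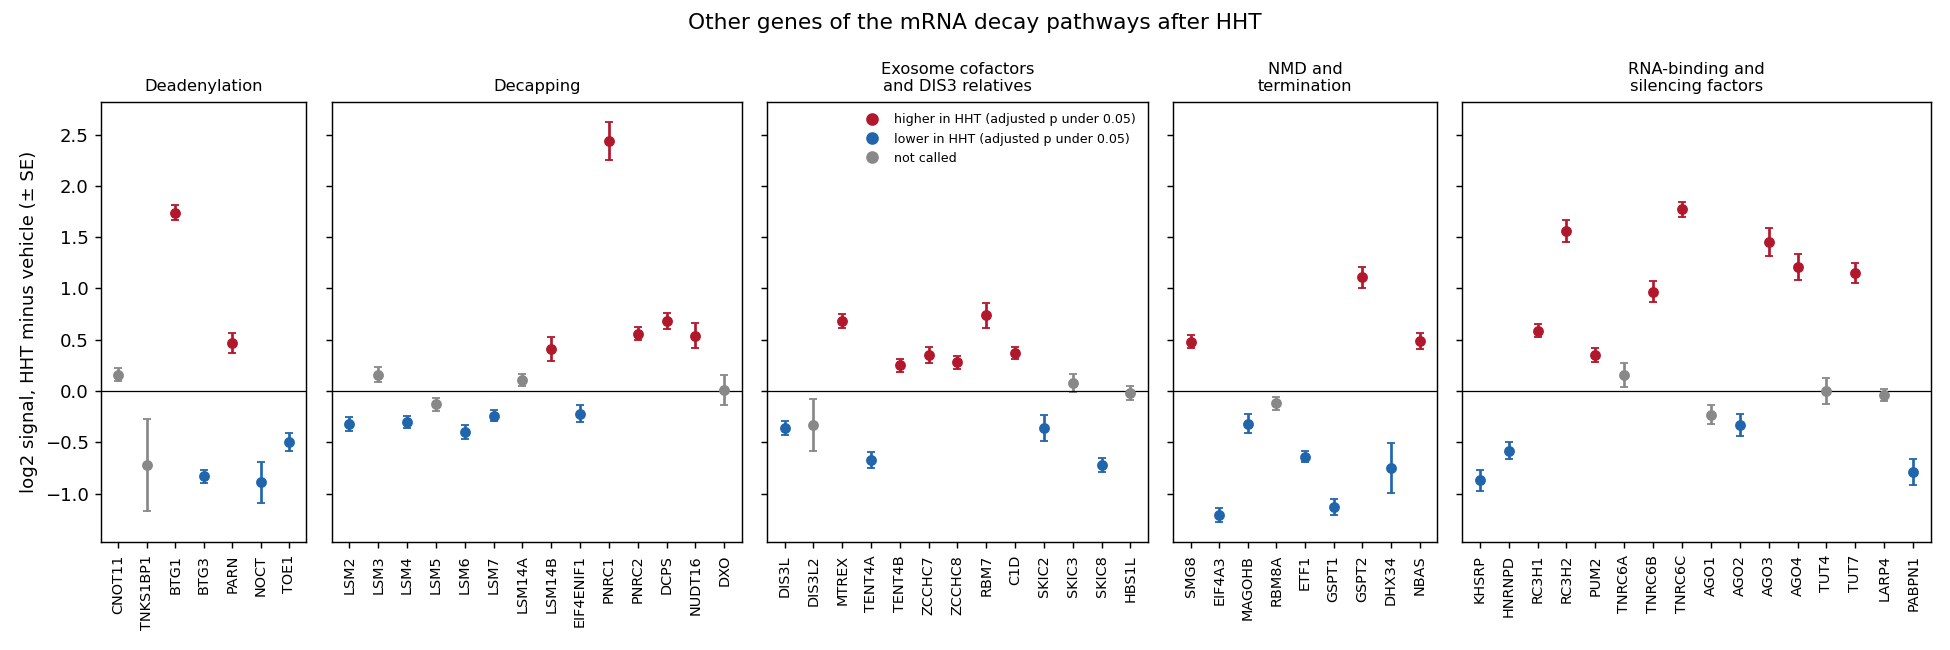
Log2 change (HHT minus vehicle, vertical axis) of 59 measured genes of the decay pathways outside the 49, grouped by role. Points are fitted changes with bars of 1 SE, coloured by call; PNRC1, TNRC6C and BTG1 are the highest, and EIF4A3, GSPT1 and NOCT the lowest called ones.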

How the data were processed

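The authors deposited a log2 signal for every probe set, 54675 on each of the 6 arrays. The submitters' processing notes name MAS5 and give no version. The values used carry no detection calls, and a genome build is not given in the sources used here. After that, 62 control probe sets were set aside, and the 40% of the other 54613 with the lowest mean over all 6 arrays (below 4.80) were left out. Probe sets with 1 annotated gene (41091) were named, and 41037 symbols were updated through Entrez IDs with RefSeq of GRCh38.p14. The change between HHT and vehicle was fitted by lmFit and eBayes with a variance trend (limma 3.58.1, R 4.3.3). Benjamini-Hochberg adjustment was made over 32768 probe sets. The same fit was also run on simulated arrays that took their levels and spread from these arrays. Errors are SE of changes or SD over 3 arrays, and precision is limited by how many arrays there are.

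The members and lists were chosen with earlier results of these data known. Members named in full are up to 3 called genes per role and direction with the largest change and no overlap between groups, and, of the other decay genes, 3 per direction. TOB1, XRN2, DIS3 and UPF1 are given in full outside this rule, and of these only TOB1 was called. Alternatives were 3 other scalings, other filters, variance models and thresholds, a pseudocount of 64, the replicate number as a block, averaging all probe sets of a gene, and dropping each array in turn.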

Additional observations from a re-analysis of the deposited data

How the results depend on the processing

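Of the 33 called members, all 33 kept their call and direction in each of the 6 fits without 1 array, and 24 did so under all 16 alternatives at an adjusted p under 0.05. Of the remaining 9, SMG6 had no value under the stricter filter, and CNOT1, CNOT2, TOB2, LSM1, EXOSC3, EXOSC5, EXOSC6 and EXOSC7 lost or turned their call under at least 1. With equal medians, 1718 genes fell in all, 5 members fell, and 0 in deadenylation, 2 in the exosome and 10 of the other decay genes did. With equal hybridisation controls these counts were 1741, 6, 1, 2 and 10, and 4 NMD genes rose. The lowest 60% left out took SMG6 away and left 1 NMD gene higher. Where a call also needed a log2 change of 1 or more in size, 1297 genes rose and 806 fell, 9 members rose and 1 fell, 1 rose and 0 fell in deadenylation, 3 rose in decapping, 1 rose and 1 fell in the exosome, 0 binding proteins fell, and 8 other decay genes rose and 2 fell.

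Reversals were mostly among uncalled genes. With equal medians the changes were 0.16 (CNOT6), 0.12 (CNOT7), 0.22 (CNOT8), 0.08 (EDC4), 0.06 (PATL1) and 0.18 (DIS3). With equal hybridisation controls they were 0.21 (CNOT6), 0.17 (CNOT7), 0.26 (CNOT8, called), 0.12 (EDC4), 0.11 (PATL1) and 0.22 (DIS3, called). Quantile normalization gave 0.20 (CNOT7, called), -0.11 (UPF1) and -0.10 (SMG5), 0.31 for CNOT7 minus CNOT8 and -0.01 for EXOSC6 minus EXOSC7. The mean of probe sets gave -0.35 (CNOT3), -0.37 (CNOT9), 0.08 (PATL1), 0.36 (EXOSC7, called) and -0.47 for EXOSC6 minus EXOSC7. Array weights gave -0.01 for SMG5. Without 1 array, CNOT3 ranged from -0.07 to 0.26, CNOT8 from -0.07 to 0.02, UPF1 from -0.00374 to 0.02 and SMG5 from -0.08 to 0.08. Equal medians and equal hybridisation controls add a constant to each array; the cause of the other reversals was not tested.

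With the replicate number as a block, 23 members rose and 11 fell, no called member lost its call, and SMG9 was called (0.52, adjusted p = 0.019, limma). Same-numbered arrays did not deviate together (correlations over probe sets of 0.0655, -0.0141 and 0.0491), so the numbers were not taken as pairs. The number of arrays and the low signal of SMG6 limit the precision.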
